A study of Mus musculus with 12 samples.

Results

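The 10 endoplasmic reticulum chaperone genes described here were Hspa5, Hsp90b1, Calr, Pdia3, Pdia4, Pdia6, Creld2, Sdf2l1, Dnajb11 and Manf. They were taken from the deposited gene table by symbol among its known genes, and all 10 were found, of 22036 known genes and 33625 genes in all. The RNA came from wild type MODE-K cells, cultured as a line that the labels place in mouse small intestinal epithelium. Cultures were given 12 Gy of gamma radiation and collected 48 h later (12Gy_48h), 12 Gy and collected 24 h later (12Gy_24h), 4 Gy and collected 48 h later (4Gy_48h), or no radiation and collected at 0 h (control). Each of the 4 groups had 3 libraries, and all came from the one cell line with no gene edit or drug named. The control was collected at 0 h only, so dose and collection time cannot be told apart in any comparison with it. The labels speak of parallel experiments at each dose and say no more of how separate the cultures were, so p-values cover the spread between libraries of one line. In bulk RNA, more transcript per cell and more expressing cells cannot be told apart.

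Proteins that enter the endoplasmic reticulum fold there with the help of resident chaperones. Hspa5 (BiP) is the Hsp70 chaperone of the compartment, Hsp90b1 (GRP94) its Hsp90 chaperone and Calr a calcium-binding lectin chaperone. Pdia3, Pdia4 and Pdia6 are oxidoreductases of the protein disulfide isomerase family, while Dnajb11 (ERdj3) is a J-domain co-chaperone of Hspa5. Sdf2l1 forms a complex with Dnajb11, Manf is a secreted trophic factor that binds Hspa5, and Creld2 is an EGF-repeat protein of the secretory pathway. When unfolded proteins collect, the sensors Ern1 (IRE1), Atf6 and Eif2ak3 (PERK) start the unfolded protein response, in which Atf6 and spliced Xbp1 activate chaperone genes through a promoter sequence called the endoplasmic reticulum stress element (ERSE).

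The ERSE is the feature of sequence these genes are best known for, so the promoters were searched for it. Windows of 300 bases, from 250 before to 50 after the annotated start, came from RefSeq (GRCm38.p6) and were there for 9 of the 10 genes. Manf was not among them. The ERSE was searched as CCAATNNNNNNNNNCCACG on both strands. It was in the window of 5 of the 9 genes (Hspa5, Calr, Hsp90b1, Pdia6 and Creld2), against 0.137% of all 27025 genes with a window, and Hsp90b1 held it at 2 places. Because the element was chosen as one these genes are known for, its contrast with all genes is a description and not a test. Each match is printed with 5 bases on either side, on the strand that reads CCAAT first, with both ends of the element in capitals.
Hspa5, chr2:34772020-34772048, plus strand: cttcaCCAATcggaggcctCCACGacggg
Calr, chr8:84847070-84847098, plus strand: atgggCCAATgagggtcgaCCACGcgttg
Hsp90b1, upstream match, chr10:86705633-86705661, minus strand: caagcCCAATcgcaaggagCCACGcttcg
Hsp90b1, downstream match, chr10:86705528-86705556, plus strand: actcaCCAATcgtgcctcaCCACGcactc
Pdia6, chr12:17266486-17266514, plus strand: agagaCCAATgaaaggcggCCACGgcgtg
Creld2, chr15:88819515-88819543, minus strand: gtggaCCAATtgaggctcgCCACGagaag
The capitals are the same in all 6 matches because the search fixed them, and the 9 bases between them differed from match to match. The matches lay 65 to 47 bases before the start in Hspa5, 162 to 144 in Calr, 98 to 80 in Pdia6 and 126 to 108 in Creld2. Those of Hsp90b1 lay 212 to 194 and 107 to 89 bases before its start. These distances are from the RefSeq starts. GENCODE begins Hspa5 farther upstream, so that there the Hspa5 match lies within the annotated gene.

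Allowing 1 of the 10 fixed bases to differ added Pdia3 and Pdia4, which made 7 of 9 genes, against 1.72% of all genes. Both near matches are shown for completeness, and since all 10 genes were called at 12Gy_48h against control, they mark no subset of the calls. By GENCODE all 250 bases before the RefSeq start of Pdia3, its near match included, lie in annotated exons of Pdia3 or Catsper2.
Pdia3, near match: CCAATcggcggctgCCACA
Pdia4, near match: CCAATcacgggctgCCACT
Dnajb11 held a related element, ERSE-II (searched as ATTGGNCCACG on both strands), from 7 to 17 bases after its start, which 0.0444% of all genes held. Its match read ATTGGCCCACG. The CCAAT and CCACG letters overlap both elements by construction, and singly they were common: 9 of the 9 genes and 41.1% of all genes held CCAAT, and 8 of 9 and 35.5% held CCACG. The Xbp1 element searched as TGACGTGG and the Atf4 element searched as TTGCATCA were in none of the 9 windows, against 0.714% and 1.03% of all genes. A match is a description of letters, not a binding site.

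Sdf2l1 and Creld2 had the largest fold changes of the 10 genes at 12Gy_48h against control, and their windows differ: Creld2 held the full ERSE, while Sdf2l1 held CCAAT and CCACG but not at the spacing of the element. The 250 bases before each start are printed with every CCAAT and CCACG, on either strand, in capitals. There were 3 CCAAT and 2 CCACG matches in Creld2, and 3 of each in Sdf2l1.
Creld2, chr15:88819396-88819645, plus strand: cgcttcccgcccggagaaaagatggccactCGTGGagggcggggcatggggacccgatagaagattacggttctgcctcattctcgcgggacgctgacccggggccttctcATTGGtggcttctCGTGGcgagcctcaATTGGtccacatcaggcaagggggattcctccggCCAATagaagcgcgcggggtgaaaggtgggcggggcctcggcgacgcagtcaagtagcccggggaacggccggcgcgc
Sdf2l1, chr16:17132384-17132633, minus strand: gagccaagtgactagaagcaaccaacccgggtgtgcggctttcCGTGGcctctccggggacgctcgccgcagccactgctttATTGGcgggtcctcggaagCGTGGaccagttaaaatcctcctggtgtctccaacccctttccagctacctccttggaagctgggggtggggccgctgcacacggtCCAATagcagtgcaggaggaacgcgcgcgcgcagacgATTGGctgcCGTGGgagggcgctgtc
The Creld2 element also lies in the window of the divergent neighbour Alg12, a mannosyltransferase of glycan assembly. Alg12 had a log2 fold change of -0.29 at 12Gy_48h against control and did not pass the test (edgeR adjusted p = 0.397).

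The genes lie on 8 chromosomes. In GRCm38 with the GENCODE annotation, Hspa5 spans chr2:34771970-34777547, Pdia3 chr2:121413775-121438687, Pdia4 chr6:47796141-47813430 and Calr chr8:84841850-84846934. Manf spans chr9:106838312-106891979, Hsp90b1 chr10:86690209-86705509, Pdia6 chr12:17266545-17284770 and Creld2 chr15:88819646-88826683. Sdf2l1 spans chr16:17130138-17132383 and Dnajb11 chr16:22857845-22879634. All 10 are protein coding. Exons of Manf overlap those of Dcaf1 (26 to 52 reads per library) and Rbm15b (16 to 34 reads), and exons of Pdia3 overlap those of Catsper2 (2 to 10 reads), while Manf had at least 388 and Pdia3 at least 766 reads in each library. The sources used here do not say if counting used the strand, and reads of such overlaps cannot be told apart.

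The 12 libraries held 3616416 to 4831641 reads assigned to genes. Every chaperone gene passed the filter on low counts, with 62 to 144 reads per library for Sdf2l1 and 1295 to 5910 for Hspa5. Reads on loci that the authors assembled and listed as new genes took 14.7 ± 0.606% at 12Gy_48h, 11.9 ± 0.0571% at 12Gy_24h, 15.8 ± 0.947% at 4Gy_48h and 21.0 ± 1.03% in control (SD, n = 3 each). With these loci in the scaling, the log2 fold change of the median known gene against control was 0.20 at 12Gy_48h, 0.23 at 12Gy_24h and 0.14 in the 4Gy_48h group. Scaling and testing the known genes alone brought these medians to 0.01, 0.00 and -0.01, so both values are given for the chaperone genes. Control replicate 1 stood apart: its counts differed from those of the other controls by 8.05 and 8.80 in chi-square per degree of freedom, against 1.83 to 5.66 for the other pairs of replicates. It was the lowest control for 8 of the 10 chaperone genes, all but Pdia4 and Creld2. Epithelial markers bore out the label poorly: of 10 listed, 5 (Epcam, Cdh1, Cldn4, Cldn7 and Vil1) had 0 or 1 read in every library. Summed, the 10 came to 10.7 to 11.1 CPM (counts scaled by the library total, as deposited) at 12Gy_48h, 14.2 to 18.8 at 12Gy_24h, 8.41 to 9.60 at 4Gy_48h and 3.18 to 7.04 in control. Krt18 was at 11.6 to 16.2 CPM at 12Gy_24h and 1.32 to 5.17 in control. Summed over 10 markers, mesenchymal genes came to 1669 to 2246 CPM at 12Gy_48h, 2519 to 2982 at 12Gy_24h, 1413 to 1904 at 4Gy_48h and 807 to 1229 in control. Vim, Col1a2 and Sparc were at the front, with Vim alone at 498 to 921 CPM in control. Of these 10, Acta2 and Thy1 had at most 1 read in every library, and Col3a1 and Dcn at most 0.529 and 1.07 CPM. The part of this shift in the results on the chaperone genes was not tested.

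At 48 h after 12 Gy every chaperone gene had its highest group mean. Together the 10 genes took 0.366 ± 0.0434% of all reads at 12Gy_48h, 0.171 ± 0.0083% at 12Gy_24h, 0.195 ± 0.0173% at 4Gy_48h and 0.213 ± 0.0571% in control (SD, n = 3 each). The lowest group mean was at 12Gy_24h for Hspa5, Calr, Pdia4, Creld2 and Manf. For Hsp90b1, Pdia3, Pdia6, Sdf2l1 and Dnajb11 it was in control. Levels below are CPM after TMM scaling, a scaling that adjusts library totals for composition, and libraries are given in the order of their replicate numbers.

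**Figure D1:**
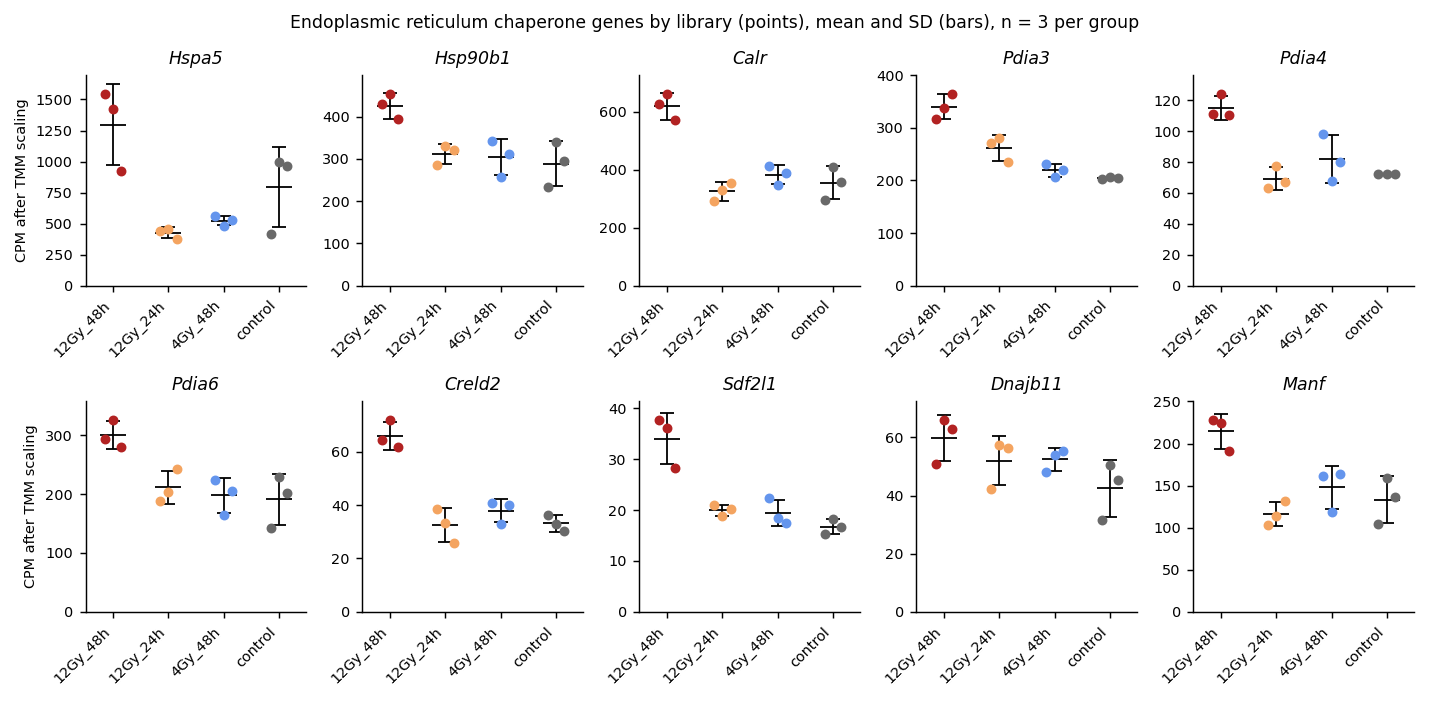
Scaled CPM of each chaperone gene (vertical axes, each from 0) in the 12 libraries, 3 per group; points are libraries and bars the mean and SD. The 12Gy_48h libraries lie above all others for 8 of the genes, with exceptions in Hspa5, where 1 of them lies below 2 controls, and in Dnajb11.

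The 3 main chaperones were called higher at 12Gy_48h than in control, as were 18.2% of the known genes tested. Hspa5 had 1546, 1421 and 927 CPM at 12Gy_48h, 442, 460 and 378 at 12Gy_24h, 561, 483 and 530 at 4Gy_48h, and 419, 999 and 966 in control. Replicate 3 of 12Gy_48h lay below control replicates 2 and 3, and the first control lay with the 12Gy_24h libraries, so the 12Gy_48h and control groups overlapped. Its log2 fold change was 0.71 ± 0.24 (SE; 95% interval 0.21 to 1.21), or 1.63-fold, with an edgeR adjusted p of 0.0306. Hsp90b1 had 430, 454 and 394 CPM at 12Gy_48h, 285, 329 and 321 at 12Gy_24h, 342, 258 and 311 at 4Gy_48h, and 233, 339 and 295 in control. Each 12Gy_48h library of Hsp90b1 was above every other library, and its log2 fold change against control was 0.56 ± 0.13 (edgeR adjusted p = 0.00447). Calr had 626, 663 and 571 CPM at 12Gy_48h, 291, 330 and 354 at 12Gy_24h, 414, 348 and 387 at 4Gy_48h, and 297, 411 and 359 in control. The lectin chaperone thus stood above all 9 other libraries in each 12Gy_48h library, with a log2 fold change against control of 0.80 ± 0.12 (edgeR adjusted p = 0.000136).

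The oxidoreductases were highest at 12Gy_48h as well. Pdia3, which works with Calr on glycoproteins, had 318, 338 and 365 CPM at 12Gy_48h, 272, 280 and 234 at 12Gy_24h, 231, 207 and 220 at 4Gy_48h, and 203, 207 and 205 in control. Its controls lay close together, and its 12Gy_24h libraries lay between the 12Gy_48h and the other libraries. The log2 fold change of Pdia3 at 12Gy_48h against control was 0.73 ± 0.10 (edgeR adjusted p = 6.24e-05). Pdia4 had 111, 124 and 110 CPM at 12Gy_48h, 63.2, 77.7 and 66.8 at 12Gy_24h, 98.4, 67.9 and 80.1 at 4Gy_48h, and 72.2, 72.5 and 72.1 in control, a log2 fold change of 0.67 ± 0.14 at 12Gy_48h against control. Pdia6 ran from 279 to 326 CPM at 12Gy_48h, 188 to 242 at 12Gy_24h, 164 to 223 at 4Gy_48h and 143 to 228 in control, a log2 fold change of 0.65 ± 0.16 at 12Gy_48h against control. Both passed the test at 12Gy_48h against control (edgeR adjusted p = 0.00132 for Pdia4 and 0.00483 for Pdia6), and in both the 12Gy_48h libraries were above all 9 others.

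The smaller, inducible proteins included the genes with the largest relative change. Creld2 had 64.4, 71.8 and 61.7 CPM at 12Gy_48h, 38.5, 33.3 and 26.0 at 12Gy_24h, 40.8, 32.8 and 39.9 at 4Gy_48h, and 36.3, 32.8 and 30.3 in control. Its log2 fold change at 12Gy_48h against control was 0.99 ± 0.15, or 1.99-fold (edgeR adjusted p = 0.00013), and the 9 libraries of the other groups overlapped with one another. Sdf2l1 had 37.7, 36.2 and 28.2 CPM at 12Gy_48h, 21.0, 18.7 and 20.1 at 12Gy_24h, 22.3, 18.5 and 17.5 at 4Gy_48h, and 15.3, 18.2 and 16.6 in control. For this stress-induced partner of Dnajb11 the log2 fold change was 1.03 ± 0.16, or 2.04-fold (edgeR adjusted p = 0.000131). Manf had 228, 225 and 191 CPM at 12Gy_48h, 103, 114 and 131 at 12Gy_24h, 161, 118 and 163 at 4Gy_48h, and 104, 159 and 137 in control. The 12Gy_48h libraries of Manf were again above all others, by a log2 fold change of 0.69 ± 0.16 against control (edgeR adjusted p = 0.00352).

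Dnajb11 had 50.8, 66.0 and 62.7 CPM at 12Gy_48h, 42.2, 57.3 and 56.3 at 12Gy_24h, 48.0, 54.0 and 55.3 at 4Gy_48h, and 31.6, 50.4 and 45.3 in control. The first 12Gy_48h library lay just above the highest control and below 2 libraries of each other irradiated group. Its log2 fold change at 12Gy_48h against control was 0.50 ± 0.17 (edgeR adjusted p = 0.035), the smallest of the 10.

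All 10 chaperone genes were thus called higher at 12Gy_48h than in control, beside the 18.2% of known genes. The median log2 fold change was 0.70 over the 10 genes, 0.20 over known genes and 0.01 over all 15086 genes tested. In 9 of the 10, all but Hspa5, each 12Gy_48h library lay above each control, as it did for 29.1% of known genes. With known genes scaled and tested alone, Calr, Pdia3, Pdia4, Creld2, Sdf2l1 and Manf were called higher, 6 of 10 against 6.76% of known genes, and the median over the 10 genes was 0.51. The log2 fold changes of the other 4 were then 0.52 for Hspa5 (edgeR adjusted p = 0.16), 0.37 for Hsp90b1 (0.0757), 0.46 for Pdia6 (0.0587) and 0.31 for Dnajb11 (0.242). The known-gene call of Manf lay near the threshold (edgeR adjusted p = 0.0447). It was lost without control replicate 1 or 3 (0.148 and 0.0932), or without 12Gy_48h replicate 1 or 2 (0.14 each). That of Pdia4 was lost without control replicate 3 (0.0582) or 12Gy_48h replicate 2 (0.0938). In the fit to all genes without control replicate 1, Hspa5 had a log2 fold change of 0.41 (edgeR adjusted p = 0.0596) and Dnajb11 0.33 (0.127), and neither was called. Leaving out the first 12Gy_48h library gave Hspa5 0.58 (edgeR adjusted p = 0.112), and leaving out the second gave Hspa5 0.68 (0.0816) and Dnajb11 0.47 (0.0974). Without replicate 3 of 12Gy_48h, Dnajb11 was at 0.48 (edgeR adjusted p = 0.0845). By the authors' deposited table, 9 of the 10 genes had an adjusted p under 0.05 for this comparison, with Hspa5 the exception at a log2 fold change of 0.66 and an adjusted p of 0.227.

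**Figure D2:**
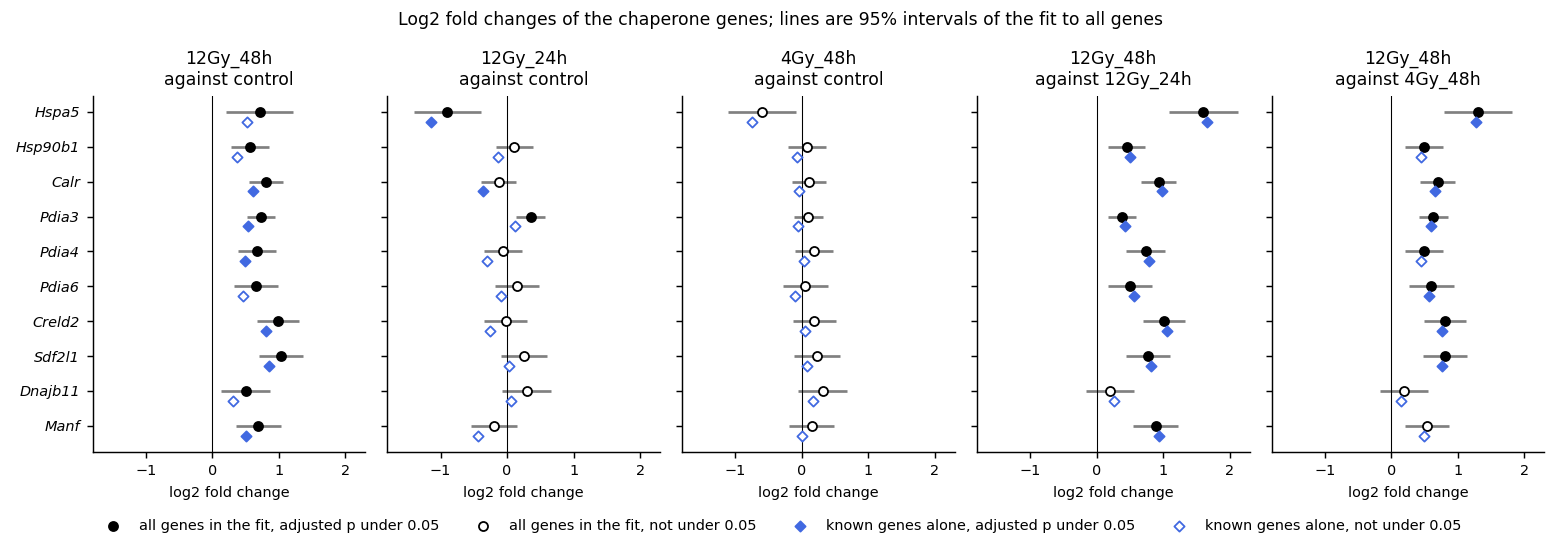
Log2 fold changes (horizontal axes) of the 10 genes in the 5 comparisons. Circles with 95% intervals come from the fit to all genes, diamonds from the fit to known genes alone, and filled symbols have an adjusted p under 0.05; at 12Gy_48h all 10 circles are filled against control and 9 against 12Gy_24h.

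At 24 h after 12 Gy, Hspa5 was lower than in control, Pdia3 was higher and the other 8 genes were not called. The log2 fold change of Hspa5 was -0.90 ± 0.24 (95% interval -1.40 to -0.39; edgeR adjusted p = 0.00523), with the first control inside the range of the 12Gy_24h libraries. The log2 fold change of Pdia3 was 0.35 ± 0.10 (edgeR adjusted p = 0.00825), and its groups did not overlap. Thus 1 of 10 genes was called higher, where 26.5% of known genes were, and 1 was called lower, where 3.99% were. Libraries did not overlap for Pdia3 and Sdf2l1, 2 of 10 genes, with each 12Gy_24h library above each control, as for 32.6% of known genes. The median log2 fold change of the 10 genes was 0.04, against 0.23 over known genes.

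Scaling by known genes alone moved the 24 h values down. Hspa5 then had a log2 fold change of -1.14 (edgeR adjusted p = 0.00397) and Calr of -0.37 (0.0488), so that 2 of 10 genes were called lower, where 7.91% of known genes were. The Calr call lay at the threshold and was lost without control replicate 2 or 3, or without 12Gy_24h replicate 1 or 2. Pdia3 had 0.12 (edgeR adjusted p = 0.456) and was not called. The other genes lay between -0.44 for Manf (edgeR adjusted p = 0.0769) and 0.06 for Dnajb11 (0.866). The Hspa5 call rested in part on the second control: without it the log2 fold change was -0.63 (edgeR adjusted p = 0.0561), and without the first control it was -1.19 (1.57e-05). Leaving out the second control gave Dnajb11 a log2 fold change of 0.51 (edgeR adjusted p = 0.0361), and it was also called with no filter on low counts (0.45; 0.0216). In the authors' deposited table Hspa5 had -0.78 with an adjusted p of 0.0916, and Pdia3 had 0.43 with an adjusted p of 0.00889.

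At 48 h after 4 Gy no chaperone gene was called by edgeR, where 7.09% of known genes were, and 1.32% with known genes alone. Hspa5 had an unadjusted p under 0.05, the only 1 of the 10, and DESeq2 on the same genes called 0. Its log2 fold change was -0.60 ± 0.24 (95% interval -1.10 to -0.09; edgeR adjusted p = 0.0951). Without control replicate 1 it was -0.90 (edgeR adjusted p = 0.00112) and was called lower, with the 3 libraries at 4Gy_48h (483 to 561 CPM) under the 2 controls left (966 and 999 CPM). With no filter on low counts it was called lower too, at -0.53 (edgeR adjusted p = 0.00614). Among the other 9 genes the log2 fold changes ran from 0.05 for Pdia6 (95% interval -0.28 to 0.39) to 0.31 for Dnajb11 (-0.06 to 0.68). The upper ends of these 9 intervals lay between 0.31 for Pdia3 and 0.68 for Dnajb11, and all 10 genes had overlapping libraries.

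Between 24 h and 48 h after 12 Gy, a comparison that uses no control library, 9 of the 10 genes were higher at the later time. Hspa5 averaged 1298 ± 327 CPM at 12Gy_48h and 427 ± 43.2 CPM at 12Gy_24h (SD, n = 3 each), 3.04-fold, a log2 fold change of 1.61 ± 0.24 (95% interval 1.09 to 2.12; edgeR adjusted p = 0.000153). Creld2 was 2.02-fold higher (log2 1.01 ± 0.15; edgeR adjusted p = 0.000129) and Calr 1.91-fold (0.93 ± 0.12; 4.48e-05). These 3 genes, with Manf at 0.89 ± 0.16 (edgeR adjusted p = 0.000667), led the list, and all of them had their lowest group mean at 24 h.

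Sdf2l1 had a log2 fold change of 0.77 and Pdia4 of 0.74 between the times (edgeR adjusted p = 0.00144 and 0.000803). The smallest changes among those called were those of Pdia6 at 0.51 (edgeR adjusted p = 0.0224), Hsp90b1 at 0.45 (0.0172) and Pdia3 at 0.38 (0.00968). Dnajb11 was not called, at 0.21 with a 95% interval of -0.16 to 0.57 (edgeR adjusted p = 0.387). The count of 9 of 10 stood beside 9.97% of known genes called higher, and the libraries of the 2 times did not overlap in the same 9 genes, each 12Gy_48h library being the higher, as in 17.4% of known genes. With known genes alone 9 of 10 were called again, beside 11.1% of known genes, and the median over the 10 genes was 0.80, against 0.75 in the fit to all genes. Leaving out single libraries left 6 to 9 genes called, and those lost were among Hsp90b1, Pdia6 and Pdia3. No unirradiated culture of 24 h or 48 h was analysed here, so time after radiation and time in culture cannot be told apart.

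At 48 h the genes were also higher after 12 Gy than after 4 Gy, a comparison at 1 time without control libraries. In all, 8 of 10 were called higher, where 2.79% of known genes were. Hspa5 averaged 1298 ± 327 CPM at 12Gy_48h and 525 ± 39.1 CPM at 4Gy_48h (SD, n = 3 each), 2.47-fold (log2 1.31 ± 0.24; edgeR adjusted p = 0.00894). Sdf2l1 and Creld2 were next at 0.81 and 0.80 on the log2 scale (edgeR adjusted p = 0.0102 and 0.00903), followed by Calr at 0.69 (0.00628), Pdia3 at 0.63 (0.00431) and Pdia6 at 0.60 (0.0399). Pdia4 and Hsp90b1 both came to 0.49 and lay near the threshold (edgeR adjusted p = 0.0484 and 0.0475). Manf at 0.54 (edgeR adjusted p = 0.0622) and Dnajb11 at 0.19 (0.565) were not called. Each 12Gy_48h library lay above each 4Gy_48h library in 9 of the 10 genes, all but Dnajb11, as for 18% of known genes. With known genes alone 6 of 10 were called, beside 2.91% of known genes, as Pdia4 (edgeR adjusted p = 0.0514) and Hsp90b1 (0.0593) fell out. Leaving out the second 12Gy_48h library left only Pdia3 called, and leaving out replicate 1 or 3 of that group, or replicate 2 or 3 of 4Gy_48h, left 5 genes.

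The 10 genes varied together across libraries to unequal degrees. Pearson's r of the log2 scaled CPM over the 12 libraries ran from 0.36 to 0.98 over the 45 pairs, with a median of 0.78; as a description, these points share library and group. Each gene's r with the mean of the other 9 was highest for Calr (0.97) and Hsp90b1 (0.95) and lowest for Dnajb11 (0.60), Hspa5 (0.77) and Pdia3 (0.78). Hspa5 made up 31.0 to 41.7% of the reads of the 10 genes at 12Gy_48h, 20.6 to 25.3% at 12Gy_24h, 26.2 to 27.6% at 4Gy_48h, and 27.0, 39.7 and 41.5% in control. The other 9 genes summed to 2182 to 2428 deposited CPM at 12Gy_48h, 1242 to 1368 at 12Gy_24h, 1276 to 1552 at 4Gy_48h and 1093 to 1570 in control. In control replicates 2 and 3 Hspa5 was thus near its level in replicate 3 of 12Gy_48h while the other 9 genes summed to 1570 and 1344 CPM, within or just above the range of the 4Gy_48h libraries.

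**Figure D3:**
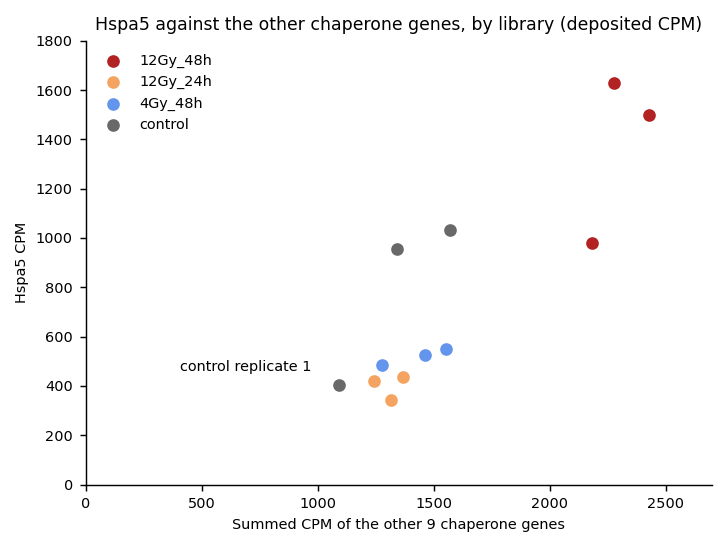
Deposited CPM of Hspa5 (vertical axis) against the summed CPM of the other 9 chaperone genes (horizontal axis) in the 12 libraries. The 12Gy_48h libraries are highest on the horizontal axis, while control replicates 2 and 3 stand above the 4Gy_48h and 12Gy_24h libraries on the vertical axis; on the horizontal axis control replicate 2, at 1570, is just above the highest of these, at 1552.

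Levels were also divided by the length of the longest coding transcript, a scaling that applies only where longer transcripts give more reads. Whether that holds for these reads was not tested, and the order between genes depends on it. Without it Hspa5 averaged more than Calr in every group, such as 427 and 325 scaled CPM at 12Gy_24h and 525 and 383 at 4Gy_48h. Per kilobase the order changed little between groups. At 12Gy_48h Hspa5 was first at 354 scaled CPM per kb and Calr second at 284. At 12Gy_24h Calr was first at 149 and Hspa5 second at 116, and at 4Gy_48h Calr came to 175 and Hspa5 to 143. In control Hspa5 was first at 216 and Calr second at 163. Hsp90b1, Pdia6, Pdia3 and Manf held places 3 to 6 in every group, from 151 for Hsp90b1 to 95.5 for Manf at 12Gy_48h. Pdia4, Creld2, Sdf2l1 and Dnajb11 were last, at 48.0, 48.3, 30.7 and 23.8 scaled CPM per kb at 12Gy_48h, where Pdia4 and Creld2 cannot be ranked.

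The list called factors here held sensors, transcription factors and other regulators of the unfolded protein response, such as Dnajc3 and Ppp1r15a. Of its 14 genes tested (18 listed), 5 were called higher at 12Gy_48h than in control and 1 lower. With known genes alone these counts were 2 and 1. Xbp1, whose spliced form activates ERSE genes, averaged 55.7 ± 3.45 CPM at 12Gy_48h and 32.2 ± 3.92 CPM in control (SD, n = 3 each), a log2 fold change of 0.79 ± 0.20 (edgeR adjusted p = 0.00738; 0.0532 with known genes alone). The counts do not separate its spliced form. Ern1, the kinase and nuclease that splices it, was at 13.7 ± 1.47 CPM at 12Gy_48h and 8.97 ± 1.60 CPM in control (log2 0.62; edgeR adjusted p = 0.0423, and 0.205 with known genes alone). Creb3, a membrane-bound factor, rose by 0.66 (edgeR adjusted p = 0.00118) and Dnajc3, an inhibitor of Eif2ak3 and co-chaperone of Hspa5, by 0.88 (0.00311), and both were called with known genes alone too. Creb3l2, a related membrane-bound factor, had 0.79 (edgeR adjusted p = 0.042; 0.158 with known genes alone). Atf6b, named after its value was seen, was the gene called lower, at -0.43 (edgeR adjusted p = 0.0427). With known genes alone it had -0.62 (0.0102) and was again called lower.

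The sensors Atf6 and Eif2ak3 and the factors Atf4 and Ddit3 were not called at 12Gy_48h against control. Atf6 had a log2 fold change of -0.02 at 12Gy_48h (edgeR adjusted p = 0.919) and 0.52 at 12Gy_24h (0.00481; 0.17 with known genes alone) against control. Eif2ak3, at 7.08 ± 2.06 CPM at 12Gy_48h and 4.39 ± 1.60 CPM in control, had a log2 fold change of 0.70 (edgeR adjusted p = 0.0829), close in size to that of Xbp1. Atf4, the factor made under Eif2ak3, had 0.03 (edgeR adjusted p = 0.827) and its target Ddit3 (CHOP) -0.0023 (0.996) at 12Gy_48h, while Ddit3 was lower at 4Gy_48h, at 151 ± 53.1 CPM against 270 ± 104 CPM in control (log2 -0.84; edgeR adjusted p = 0.0332, and 0.0735 with known genes alone). At 12Gy_24h 2 of the 14 were called higher and 1 lower. The gene called lower was Ppp1r15a (GADD34), which restores translation after Eif2ak3 signalling, at -0.83 (edgeR adjusted p = 0.000295; 0.000241 with known genes alone), and the others were Atf6 and Dnajc3. Between the 2 times after 12 Gy, Eif2ak3 was higher at 48 h by 1.25, Ern1 by 0.82 and Xbp1 by 0.61 on the log2 scale (edgeR adjusted p = 0.0084, 0.0131 and 0.0314), and Atf6 was lower, at -0.54 (0.00737). These 4 calls held with known genes alone.

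Genes of the compartment outside the 10 were called in part, and their counts are to be read beside the 18.2% of known genes called higher at 12Gy_48h, or 6.76% with known genes alone. Of 27 other chaperones and co-chaperones tested (31 listed), 9 were called higher and 1 lower at 12Gy_48h against control, with a median log2 fold change of 0.28, and 4 and 2 with known genes alone. Sec63, a J-domain protein of the translocon, rose by 0.66 (edgeR adjusted p = 0.00235), Dnajb9 (ERdj4), a co-chaperone of Hspa5, by 0.88 (0.00438) and Fkbp2, a prolyl isomerase, by 0.45 (0.00475; 0.0888 with known genes alone). Ppic, cyclophilin C, was the gene called lower, at -0.59 (edgeR adjusted p = 0.000504). Of 17 other disulfide enzymes tested (20 listed), 7 were called higher and 0 lower, with a median of 0.41, and 2 and 1 with known genes alone. P4hb, the founding protein disulfide isomerase, averaged 320 ± 33.1 CPM at 12Gy_48h and 194 ± 15.9 CPM in control (SD, n = 3 each; log2 0.73; edgeR adjusted p = 0.000208), and Erp29, a disulfide isomerase relative without the catalytic pair, rose by 0.58 (0.000878). Selenof and Qsox1, a selenoprotein and a sulfhydryl oxidase, had 0.41 and 0.47 (edgeR adjusted p = 0.00306 and 0.00731; 0.126 and 0.117 with known genes alone).

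Among genes of endoplasmic reticulum degradation, 12 of 25 tested (27 listed) were called higher and 0 lower at 12Gy_48h against control, with a median of 0.47, and 7 and 0 with known genes alone. Edem2, a mannosidase-like protein that marks misfolded glycoproteins, rose by 0.74 (edgeR adjusted p = 0.000247), the extracting ATPase Vcp by 0.61 (0.000429), the channel protein Derl1 by 0.68 (0.000456) and the ubiquitin conjugating enzyme Ube2j1 by 0.87 (0.00077). These 4 were called with known genes alone as well. Of 37 translocation and glycan processing genes, 9 were called higher and 2 lower, with a median of 0.30, and 1 and 3 with known genes alone, shares near the 18.2% and under the 6.76% of known genes called higher. Sec61b, a translocon subunit, rose by 0.52 (edgeR adjusted p = 0.000668), and Rpn1, Tram1 and Spcs2 had 0.44, 0.61 and 0.52 (0.00295, 0.00712 and 0.00977), none of these 3 called with known genes alone. Without control replicate 1 the lists of factors, other chaperones, disulfide enzymes, degradation and translocation genes had 3, 8, 7, 12 and 12 genes called higher and 0, 1, 0, 0 and 1 lower. The share of all known genes called without that library is not given, so these counts are not to be set against the 18.2%.

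**Figure D4:**
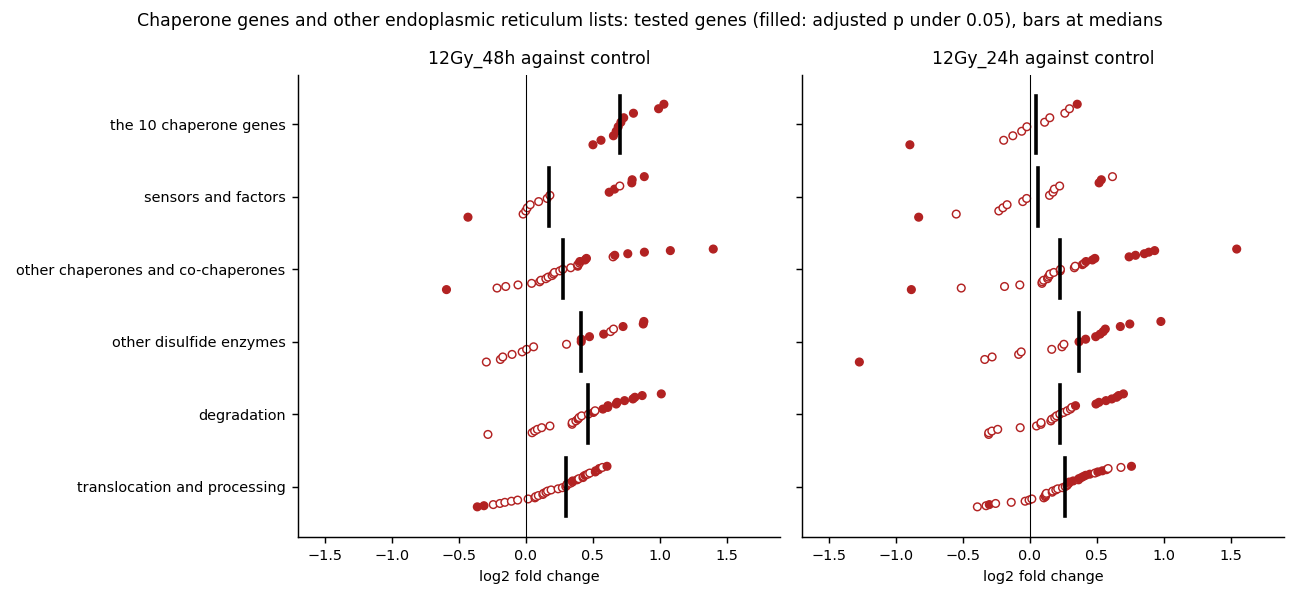
Log2 fold changes (horizontal axes) against control of the 10 chaperone genes and of the tested genes in 5 other lists, at 12Gy_48h and 12Gy_24h; each point is a gene, filled where the adjusted p is under 0.05, and bars are medians. The median of the chaperone genes is 0.70 at 12Gy_48h and 0.04 at 12Gy_24h, while those of the other lists lie between 0.17 and 0.47, and between 0.06 and 0.37.

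At 24 h after 12 Gy 26.5% of known genes were called higher than in control, and the counts of the other lists are given beside that share. Of 27 other chaperones tested, 10 rose and 1 fell. Hyou1, the large Hsp70 relative that exchanges nucleotide on Hspa5, was the one that fell, at 18.7 ± 1.55 CPM at 12Gy_24h and 34.6 ± 0.75 CPM in control (SD, n = 3 each; log2 -0.89; edgeR adjusted p = 0.000701, and 0.000533 with known genes alone). Those that rose were led by Sdf2, the constitutive relative of Sdf2l1, at 104 ± 18.9 CPM at 12Gy_24h and 54.3 ± 3.36 CPM in control (SD, n = 3 each; log2 0.93; edgeR adjusted p = 2.7e-05). The prolyl isomerases Fkbp10 and Fkbp9 rose by 0.74 and 0.85 (edgeR adjusted p = 6e-05 and 0.000167). Among disulfide enzymes 9 rose and 1 fell of 17, among degradation genes 8 rose of 25 and among translocation genes 12 rose and 1 fell of 37. The shares of degradation and translocation genes called higher were near that of known genes, and that of the factors, 2 of 14, was under it. P4hb had 0.67 (edgeR adjusted p = 0.000144) and Edem2 0.66 (0.000254), beside 0.73 and 0.74 at 12Gy_48h. With known genes alone the counts higher and lower at 24 h were 0 and 1, 6 and 1, 4 and 2, 3 and 1, and 2 and 4, in the order factors, other chaperones, disulfide enzymes, degradation and translocation. In that fit 7.91% of known genes were called lower at 24 h. The share called higher in it is not given, so its counts of higher genes are not to be set against the 26.5%. At 48 h after 4 Gy 7.09% of known genes were called in either direction, and 1.32% with known genes alone. Of the genes in these lists 6 were called higher there and 1 lower, and with known genes alone the call left was 1 translocation gene that was lower. Vcp at 0.45, Erp29 at 0.52 and Fkbp2 at 0.46 were among the 6 (edgeR adjusted p = 0.00811, 0.00385 and 0.00804).

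Between the 2 times after 12 Gy the other lists held calls in both directions, where 9.97% of known genes were called higher. At 12Gy_48h against 12Gy_24h, 5 factors were higher and 1 lower of 14, 4 other chaperones higher and 5 lower of 27, 3 disulfide enzymes higher and 4 lower of 17, 6 degradation genes higher and 1 lower of 25, and 2 translocation genes higher and 5 lower of 37. The share of known genes called lower is not given for this comparison, so nothing is read from the counts of lower genes. Hyou1 was higher at 48 h by 1.10 on the log2 scale (edgeR adjusted p = 0.00031), and at 12Gy_48h against control it had 0.21 and was not called (0.355). Dnajb9 was higher at 48 h than at 24 h by 1.07 (0.00154), whereas Sdf2 was lower by a log2 fold change of -0.54 (0.00559), Fkbp10 by -0.55 (0.00211) and Ppic by -0.73 (0.000107). Syvn1, the ubiquitin ligase of the degradation pathway, was higher at 48 h by 1.11 (edgeR adjusted p = 0.00163), Herpud1 by 0.58 (0.00463) and Sel1l by 0.65 (0.0152), while Derl2, another channel protein of that list, was lower, at -0.52 (0.0117). Hyou1, Dnajb9, Syvn1, Herpud1, Sel1l and Derl2 were chosen for mention here after their values were seen.

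The ERSE was also in the windows of 32 genes other than the chaperones, of which 9 were tested. Of these 9, 4 were called higher and 0 lower at 12Gy_48h against control, with a median log2 fold change of 0.43: Spats2l at 1.497 (edgeR adjusted p = 1.67e-05), Dnajc3 at 0.88, Syvn1 at 0.80 (0.01) and Hnrnpa3 at 0.43 (0.00339). These 4 stood beside 18.2% of known genes called higher. With known genes alone Spats2l and Dnajc3 were called, beside 6.76% of known genes. Canx, the membrane-bound partner of Calr, was among the 9 and had 0.28 there (edgeR adjusted p = 0.0986). At 12Gy_24h against control 3 were called higher and Spats2l lower (-0.93, edgeR adjusted p = 0.00183), where 26.5% and 3.99% of known genes were. At 4Gy_48h against control 2 were called, beside 7.09%. Against 12Gy_24h 2 were higher at 12Gy_48h, beside 9.97%, and against 4Gy_48h 1 was, beside 2.79%.

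The known genes whose log2 profile over the 12 libraries was most like the mean profile of the 10 chaperone genes were Tbrg1 (Pearson's r = 0.97), Ccl4 (0.96), Creb3 (0.96), Rabgef1 (0.95), Sqstm1 (0.95), Syf2 (0.94), Cstb (0.94) and Tmem140 (0.94), among 6439 named genes with a mean of at least 10 CPM. Tbrg1 averaged 283 CPM at 12Gy_48h, 166 at 12Gy_24h, 178 at 4Gy_48h and 158 in control, and Sqstm1, an autophagy receptor, averaged 548 CPM at 12Gy_48h, 355 at 12Gy_24h, 385 at 4Gy_48h and 366 in control. Ccl4, a chemokine, had 46.5 CPM at 12Gy_48h, 7.96 at 12Gy_24h, 12.0 at 4Gy_48h and 8.20 in control. For single genes the closest was Mdm2, the p53 ubiquitin ligase, for Hspa5 (r = 0.94), with 187 CPM at 12Gy_48h, 84.7 at 12Gy_24h, 103 at 4Gy_48h and 129 in control. It was Cstb for Hsp90b1 and Pdia6 (0.97 and 0.98), Tmem140 for Calr (0.98), Sat1 for Pdia3 (0.94) and Acot13 for Pdia4 (0.94). Golga3 was closest to Creld2 (0.94), Gpr107 to Sdf2l1 (0.99), Pfdn2 to Dnajb11 (0.93) and Bet1, a SNARE of transport to the Golgi, to Manf (0.98). By ranks (Spearman's rho) likeness to the mean profile ran from 0.72 for Rabgef1 to 0.98 for Sqstm1 among the genes named for it. For single genes rho ran from 0.73 for Golga3 with Creld2 to 0.99 for Gpr107 with Sdf2l1. These are descriptions over 12 libraries in 4 groups.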

How the data were processed

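Read counts per gene were deposited without normalization. The CPM that the authors deposited beside them are counts over library totals, and recomputing them gave differences of at most 4.78e-06. The table's other values are the authors' deposited adjusted p and log2 fold change, quoted only where named. Adapters were trimmed with cutadapt 1.9, per the submitters' processing notes. Aligner, build, annotation and use of strand: not given in the sources used here. Of 33636 lines, 11 were overflow of a long cell and were dropped, and 22022 of 22036 known genes were matched by Ensembl identifier.

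The quasi-likelihood test of edgeR 4.0.16 (R 4.3.3) was run on counts kept by filterByExpr and scaled by TMM (1 mean per group, all 12 libraries, 15086 genes tested, common biological coefficient of variation 0.144). Tests were two-sided, and called genes had an adjusted p (Benjamini-Hochberg over every gene tested) under 0.05 in that one of the 5 comparisons; SE is the log2 fold change over the square root of F. Libraries held 3616416 to 4831641 reads. On simulated counts for 12Gy_48h against control, with 200 of 15086 genes changed, the test recovered 6.0% of 1.5-fold, 43.5% of 2-fold and 84.4% of 4-fold changes with 6 false calls. In the data 1790 known genes were called higher in that comparison, more than were changed in the simulation, so these rates may not carry over. The 3 comparisons with control share its libraries, and 3 comparisons share those of 12Gy_48h.

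The chaperone genes, the lists and the tests were chosen with earlier results of these data known. Named from each list were up to 4 called genes by adjusted p against control, the main sensors and factors, and the genes of highest correlation (at least 10 CPM on average, unnamed loci left out). Alternatives were relative log expression scaling, known genes alone (9816 tested), no filter, a floor of 5 CPM on the mean, DESeq2 1.42.0, the 2 groups alone, a replicate block and leaving out each replicate. Counts with known genes alone while leaving out replicates, and list counts without control replicate 1, were added after seeing the data.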

Additional observations from a re-analysis of the deposited data

Results flagged for a closer look

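For 9 of the 10 chaperone genes the level after 12 Gy differed between the collection times, by the edgeR test of 12Gy_48h against 12Gy_24h, with no unirradiated culture of either time analysed here. All 9 were higher at 48 h, where 9.97% of known genes were called higher. The log2 fold change was 1.61 for Hspa5, 0.45 for Hsp90b1, 0.93 for Calr, 0.38 for Pdia3, 0.74 for Pdia4, 0.51 for Pdia6, 1.01 for Creld2, 0.77 for Sdf2l1 and 0.89 for Manf, and the 12Gy_48h libraries were the higher in 3 of 3 against each 12Gy_24h library, as in 17.4% of known genes. In the fit to all genes Hspa5 was called on opposite sides of control at the 2 times, 0.71 at 12Gy_48h and -0.90 at 12Gy_24h. Its call at 12Gy_48h was lost with known genes alone (edgeR adjusted p = 0.16), by DESeq2 (0.117) and without control replicate 1 (0.0596). Calr was called on both sides with known genes alone, 0.61 at 12Gy_48h (edgeR adjusted p = 0.00289) and -0.37 at 12Gy_24h (0.0488). The second of these calls lay at the threshold. It was lost without control replicate 2 or 3 (edgeR adjusted p = 0.204 and 0.113) and without 12Gy_24h replicate 1 or 2 (0.175 and 0.105). It was kept without control replicate 1 (0.00508) or 12Gy_24h replicate 3 (0.0492). In the fit to all genes Calr had -0.13 at 12Gy_24h (edgeR adjusted p = 0.415).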

How the results depend on the processing

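Against control at 12Gy_48h, 10 chaperone genes were called higher, beside 18.2% of known genes, and 6 with known genes alone, beside 6.76%. At 4Gy_48h 0 were called, beside 7.09% of known genes, and 1 (Hspa5, lower) with no filter. For 12Gy_48h against 4Gy_48h the count was 8, beside 2.79% of known genes, and 5 with a replicate block, for which no share is given. The labels do not say what a shared replicate number means. Deviations of same-numbered libraries correlated at -0.11 to 0.13 and those of other pairs at -0.12 to 0.17. Such correlations over all genes cannot show whether the numbers pair the libraries. Leaving out single libraries gave 8 to 10 calls for 12Gy_48h against control, 2 for 12Gy_24h, 0 to 1 for 4Gy_48h, 6 to 9 for 12Gy_48h against 12Gy_24h and 1 to 8 against 4Gy_48h. With known genes alone these were 4 to 8, 1 to 3, 0 to 1, 7 to 9 and 1 to 6. Shares of known genes called with a library left out are not given. The causes were not tested, beyond the smaller number of libraries or genes.

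Signs turned only among values not called. At 12Gy_24h against control Creld2 had -0.02, but 0.0217 with relative log expression scaling and 0.0217 with DESeq2, and 0.13 with no filter, where Calr had 0.0256 and Pdia4 0.0924. With known genes alone Hsp90b1 had -0.13 and Pdia6 -0.0922 at 12Gy_24h, and Hsp90b1 -0.0767, Calr -0.0416, Pdia3 -0.0512 and Pdia6 -0.10 at 4Gy_48h. Over the left-out libraries at 12Gy_24h the ranges were -0.23 to 0.0647 for Calr, -0.14 to 0.24 for Creld2, -0.0107 to 0.31 for Hsp90b1, -0.34 to 0.0257 for Manf, -0.0488 to 0.0902 for Pdia4 and -0.0099 to 0.37 for Pdia6. At 4Gy_48h they were -0.0519 to 0.24 for Hsp90b1 and -0.11 to 0.24 for Pdia6. In the comparisons of 12Gy_48h with the other 3 groups no sign turned under any alternative run. Sdf2l1, Creld2, Calr, Pdia3, Pdia4 and Manf kept their call at 12Gy_48h against control under each single alternative. With known genes alone and a library left out as well, Pdia4 and Manf lost it for some libraries. Hspa5 and Dnajb11 were not called at 12Gy_48h against control by DESeq2 (adjusted p = 0.117 and 0.0615) or in an edgeR fit of the 2 groups alone (0.0644 and 0.0553). Between the times after 12 Gy, Pdia6 was not called by DESeq2 (adjusted p = 0.0525), nor Pdia3 by edgeR with no filter (0.0734). For 12Gy_48h against 4Gy_48h, DESeq2 called Manf (adjusted p = 0.0392), and relative log expression scaling in edgeR dropped Hsp90b1 (0.0524) and Pdia4 (0.0503). Most 1.5-fold changes were missed in the simulation, which changed 200 of 15086 genes, fewer than were called in the data, so its rates may not carry over. A count of genes not called does not show that they were unchanged.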
